A study of Mus musculus with 22 samples.

Results

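This report covers 10 mouse genes that decide where pyruvate goes at the end of glycolysis: the lactate dehydrogenase genes Ldha and Ldhb, the lactate carriers Slc16a1 and Slc16a3, the pyruvate dehydrogenase kinases Pdk1, Pdk2, Pdk3 and Pdk4, and the mitochondrial pyruvate carrier genes Mpc1 and Mpc2. They were taken by exact symbol, from a list chosen with earlier results of these data known. All 10 were found among 34866 gene identifiers in the culture tables and among 23911 in the whole-number cartilage table.

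Pyruvate is either reduced to lactate in the cytosol or carried into mitochondria and turned into acetyl-CoA by the pyruvate dehydrogenase complex. LDHA and LDHB are subunits of one tetrameric enzyme, the monocarboxylate carriers move lactate across the plasma membrane, MPC1 and MPC2 form the carrier of the inner mitochondrial membrane, and the PDK enzymes phosphorylate and switch off pyruvate dehydrogenase. Cartilage has no blood vessels and growth plate chondrocytes rely largely on glycolysis. The study's title links Dnmt1, the maintenance DNA methyltransferase, to bone length and to energy metabolism of growth plate chondrocytes.

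Cells and tissue came from mice labelled Dnmt1 flox (control) or Prrx1-Cre;Dnmt1 flox/flox (cKO). Prrx1-Cre acts in early limb mesenchyme, so the deletion is not limited to chondrocytes. Primary chondrocytes of knee articular cartilage from mice of postnatal day 3 to 5 gave 3 libraries per genotype before treatment (day 0) and 4 per genotype after 3 days of bone morphogenetic protein 2 (BMP2), a growth factor that drives chondrocyte differentiation, labelled 100 ng/µl (day 3). Cartilage of mice at postnatal day 5, digested with collagenase to remove connective tissue, gave 4 control and 4 cKO libraries, in each case 2 from males (replicates 1 and 2) and 2 from females. Culture labels call the replicates biological and give no sex or litter, and nothing states which libraries share an animal, so the p-values measure the spread between these samples. Both genotypes carry floxed Dnmt1, and the labels name no Cre in the controls.

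The targeted gene followed the labels: Dnmt1 stood at 158 ± 6.88 CPM (SD, n = 3) in control and 29.0 ± 3.26 (n = 3) in cKO cultures at day 0, at 69.0 ± 8.53 and 25.8 ± 11.6 (n = 4 each) at day 3, and at 42.5 ± 6.18 and 13.2 ± 1.09 (n = 4 each) in cartilage. In the estimated counts of the same cartilage libraries, a second table of the authors, it stood at 52.9 ± 7.60 and 30.6 ± 3.30 CPM, a 1.72-fold difference against 3.16-fold in the whole-number table. CPM is the counts-per-million value on the TMM-scaled library total. Day 0 libraries held 41749327 to 51741478 counts, day 3 libraries 14434197 to 18918714 and cartilage libraries 1100198 to 1888896.

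Markers of cell types moved with genotype, and their part in the results below was not tested. The summed level of 8 chondrocyte markers (among them Col2a1, Acan and Sox9) was 135952 to 144155 CPM in control and 48789 to 59574 CPM in cKO cultures at day 0, and 85922 to 106601 against 1134 to 15890 CPM at day 3, with 8 of 8 called lower on each day and none at 0 in any group. Skeletal muscle markers summed to 12.8 to 14.3 and 74.4 to 79.1 CPM at day 0 (5 of 6 tested higher, with Myod1 at 0 in controls and Myl1 at 0 in cKO cultures) and to 1.65 to 2.17 and 152 to 2020 CPM at day 3 (7 of 7 higher). Osteoblast markers summed to 158 to 184 and 220 to 424 CPM at day 0 (2 of 4 higher) and to 205 to 480 and 2226 to 4035 CPM at day 3 (5 of 6 higher). Adipocyte markers were low, at 0.901 to 1.14 and 2.37 to 4.52 CPM at day 0 (1 of 2 tested higher) and at 1.36 to 2.81 and 26.5 to 39.7 CPM at day 3 (1 of 1 higher, with Adipoq, Cidec, Lep and Cfd at 0 in controls and Lep at 0 in cKO cultures). A marker low in controls could pass the filter on low counts through the cKO libraries alone, and could then only come out higher. This holds above all for the muscle and adipocyte markers at day 3, whose tallies are therefore descriptions.

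Fibroblast markers summed to 5186 to 7571 CPM in control and 3033 to 3688 CPM in cKO cultures at day 0 (5 of 6 lower) and to 11405 to 13105 and 13027 to 13994 CPM at day 3 (1 of 6 higher). Macrophage and leukocyte markers summed to 7.14 to 8.06 and 11.2 to 12.9 CPM at day 0 (4 of 5 higher) and to 3.96 to 5.0 and 10.9 to 19.9 CPM at day 3 (3 of 4 higher). Osteoclast markers summed to 165 to 170 and 76.1 to 90.8 CPM at day 0 (1 of 4 higher, 1 lower) and to 111 to 139 and 96.5 to 355 CPM at day 3 (1 of 2 higher). Endothelial markers summed to 1.13 to 1.38 and 3.27 to 3.84 CPM at day 0 (2 of 2 tested higher) and to 0.300 to 1.1 and 1.38 to 1.61 CPM at day 3 (1 tested, not called). In the cKO group at day 3, replicate 4 stood apart: against the other 3 libraries it had lower chondrocyte (1134 against 11211 to 15890 CPM), muscle (152 against 1195 to 2020) and osteoblast sums (2226 against 3400 to 4035), and higher osteoclast (355 against 96.5 to 114), macrophage and leukocyte (19.9 against 10.9 to 11.5) and adipocyte sums (39.7 against 26.5 to 33.9). Results that rest on it are given with and without it. In bulk RNA, fewer cells of a type and less RNA per cell cannot be told apart.

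Because Dnmt1 copies methylation at CpG dinucleotides, the 250 bases before a RefSeq start (GRCm38.p6) of 4 genes are shown, with each CpG in capitals. They are the lactate dehydrogenase pair, whose ratio within a library did not overlap between genotypes on either day, and Slc16a3 and Pdk4, the 2 genes with higher levels in cKO cultures at day 3. All 10 genes matched the RefSeq promoter table. Methylation itself is not analysed here.

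Ldha, chr7:46845554-46845803, plus strand: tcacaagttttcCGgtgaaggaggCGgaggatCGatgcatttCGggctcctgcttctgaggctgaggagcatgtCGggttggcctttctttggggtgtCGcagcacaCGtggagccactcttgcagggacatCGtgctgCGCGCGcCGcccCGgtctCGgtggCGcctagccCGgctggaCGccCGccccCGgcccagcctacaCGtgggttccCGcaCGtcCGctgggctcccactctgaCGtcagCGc
Ldhb, chr6:142507958-142508207, minus strand: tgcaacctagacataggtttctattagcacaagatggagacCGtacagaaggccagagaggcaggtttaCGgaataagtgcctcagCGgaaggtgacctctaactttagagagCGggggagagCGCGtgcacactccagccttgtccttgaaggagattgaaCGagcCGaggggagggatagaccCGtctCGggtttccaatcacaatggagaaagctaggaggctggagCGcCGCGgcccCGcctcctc
Slc16a3, chr11:120948817-120949066, plus strand: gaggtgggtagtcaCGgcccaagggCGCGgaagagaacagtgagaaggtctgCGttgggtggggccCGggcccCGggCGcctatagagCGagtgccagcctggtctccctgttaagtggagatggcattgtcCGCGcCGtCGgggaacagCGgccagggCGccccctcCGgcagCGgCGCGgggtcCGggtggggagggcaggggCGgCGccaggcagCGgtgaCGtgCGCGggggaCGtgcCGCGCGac
Pdk4, chr6:5496279-5496528, minus strand: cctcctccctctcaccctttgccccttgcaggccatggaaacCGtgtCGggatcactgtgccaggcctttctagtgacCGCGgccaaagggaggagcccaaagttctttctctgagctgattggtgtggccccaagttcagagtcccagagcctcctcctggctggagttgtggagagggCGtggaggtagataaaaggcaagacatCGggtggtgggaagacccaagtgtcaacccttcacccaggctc

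The Ldha window held 25 CpG, the Slc16a3 window 29, the Ldhb window 14 and the Pdk4 window 6, against a median of 6 over 32851 RefSeq windows of the same length. Pdk4 had the fewest CpG of the 4. Of the other members, the Slc16a1 window held 37 CpG, the Pdk3 window 29 and the Mpc2 window 19. Windows of Mpc1 held 32 and 18, those of Pdk1 19 and 2, and those of Pdk2 12 and 19. A high CpG count was thus not particular to the printed genes. A second RefSeq start of Ldha (window chr7:46846832-46847081) had 9 CpG, 0 ACGTG and 1 GCGTG, and the counts do not tell the starts apart. The letters ACGTG, the core of the hypoxia response element, were searched on both strands, so that the palindrome CACGTG counts on each. They matched 5 times in the printed Ldha window, 2 times in the Slc16a3 window and not in those of Ldhb and Pdk4. Among the members not printed, they matched 2 times in the Slc16a1 window, 2 times in a Pdk2 window and 1 time in the Pdk3 window. The windows of Pdk1, Mpc1 and Mpc2 and the other Pdk2 window held none. Of all windows 16.6% held them, and the share among CpG-rich windows alone was not computed. GCGTG, the other form of that core, matched 1 time each in the Ldhb and Pdk4 windows, and 28.2% of all windows held it. Among the members not printed, it matched 3 times in the Pdk3 window and 2 times in the Slc16a1 window. It matched 1 time each in the Mpc2 window, a Pdk1 window and an Mpc1 window, and not in those of Pdk2. A match is a description of the letters and not of a bound site.

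In untreated cultures (day 0) the whole group moved: 9 of the 10 genes were lower and 1, Pdk4, was higher in cKO than in control cultures, and in none of the 10 did the genotypes overlap. The background was high, since 64.5% of 15530 genes tested were called in either direction (31.6% lower, 33.0% higher) and 70.4% did not overlap (34.2% lower, 36.2% higher). The median log2 fold change of the 10 was -0.52, against 0.01 over all genes tested. Calls throughout mean an adjusted p below 0.05 in edgeR's quasi-likelihood test, with Benjamini-Hochberg adjustment over the whole table, and gene-level adjusted p-values come from it unless DESeq2 is named. Positive log2 fold changes mean a higher level in cKO samples, except for the change over days.

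Ldha, whose subunit favours reduction of pyruvate to lactate, had 778, 787 and 783 CPM in the control and 668, 610 and 581 CPM in the cKO libraries at day 0. Every cKO library lay below every control library, by a small margin (log2 fold change -0.34, SE 0.0521, adjusted p = 3.5e-04). Ldhb, whose subunit favours the return of lactate to pyruvate, had 31.0, 27.2 and 27.4 CPM against 13.9, 15.0 and 12.5 CPM. Its log2 fold change was -1.05 (SE 0.0805, adjusted p = 4.4e-06), a 2.07-fold lower level. The log2 ratio of Ldha to Ldhb counts within a library was accordingly 4.78 ± 0.115 in controls and 5.49 ± 0.128 in cKO cultures (n = 3 each), with no overlap (two-sided exact permutation p = 0.1, the smallest that 3 against 3 allows, and 0.22 after adjustment over 11 ratio tests). The ratios of Pdk1 to Pdk2 and of Mpc1 to Mpc2 did not overlap at day 0 either (same p), while that of Slc16a3 to Slc16a1 did (exact permutation p = 0.2).

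Both lactate carriers were lower at day 0. Slc16a1 (MCT1) had 192, 194 and 207 CPM in control and 116, 113 and 102 CPM in cKO cultures, a 1.8-fold difference (log2 fold change -0.85, SE 0.0516). Slc16a3 (MCT4), the carrier typical of lactate-exporting cells, had 49.0, 58.9 and 57.0 CPM against 46.2, 35.4 and 29.4 CPM. The highest cKO library of Slc16a3 came close to the lowest control library (log2 fold change -0.58, SE 0.143, adjusted p = 0.00616).

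The kinases did not move as one at day 0. Pdk1, a hypoxia-inducible isoform, had 83.5, 86.3 and 86.2 CPM in control and 43.3, 42.6 and 32.1 CPM in cKO libraries (log2 fold change -1.12, SE 0.0981, adjusted p = 1.0e-05). Pdk2, the most widely expressed isoform across tissues, was low in both genotypes, at 4.31, 4.88 and 5.18 against 3.75, 3.35 and 2.87 CPM (log2 fold change -0.53). Pdk3 had 46.1, 47.3 and 45.8 CPM in controls and 36.2, 38.1 and 36.1 CPM in cKO libraries (log2 fold change -0.34). These 3 were lower in every cKO library than in any control library. Pdk4, the isoform induced by fasting and fatty acids, went the other way, from 1.0, 0.761 and 1.22 CPM to 2.45, 1.95 and 3.82 CPM (log2 fold change 1.47, SE 0.278, adjusted p = 0.00134), though its mean stayed the lowest of the 4 in CPM per kilobase.

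Mpc1 had 37.8, 41.6 and 41.6 CPM in control and 30.9, 33.3 and 33.1 CPM in cKO cultures at day 0 (log2 fold change -0.32, SE 0.0539, adjusted p = 6.7e-04). Its partner Mpc2 had 34.1, 34.0 and 33.9 against 24.1, 22.9 and 25.2 CPM (log2 fold change -0.50, SE 0.0475). Both subunits of the carrier were lower in all 3 cKO libraries. In a single fit of all 14 cultures Ldha, Slc16a3 and Pdk3 were not called at day 0 (edgeR adjusted p = 0.169, 0.148 and 0.0877). Their log2 fold changes were -0.34, -0.57 and -0.34, against -0.34, -0.58 and -0.34 in the fit of day 0 alone. The single fit estimates 1 spread per gene over both days, and the part of this in the lost calls was not tested.

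**Figure D1:**
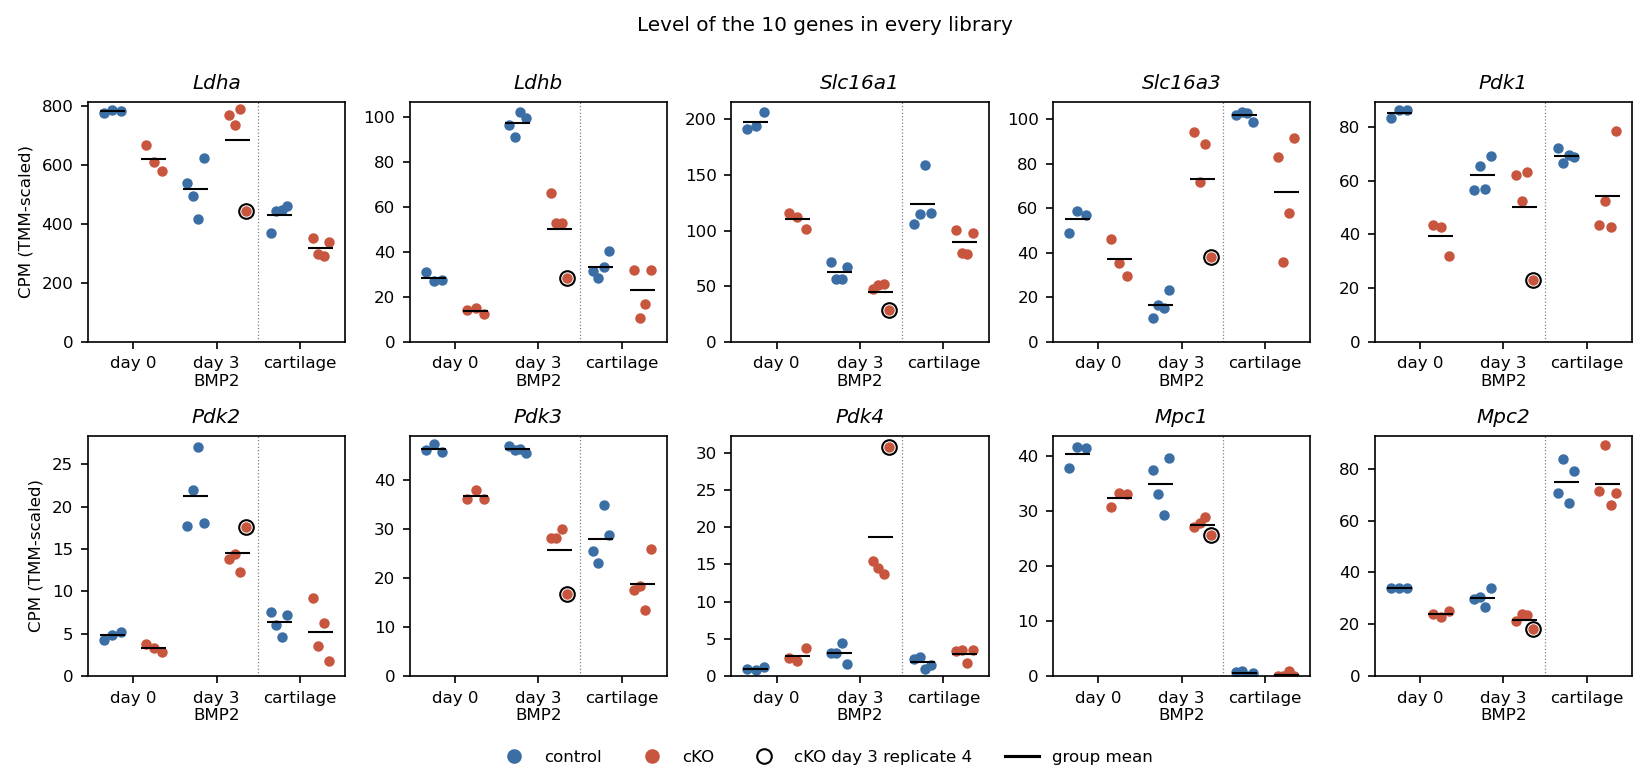
CPM of each gene (y axis, from 0) in every library, by day 0 cultures, day 3 cultures and cartilage (whole-number counts; x axis), control in blue and cKO in red, with group means as lines and replicate 4 of the cKO group at day 3 ringed. Slc16a3 at day 3 spans 38.1 to 94.3 CPM in cKO and 10.6 to 23.1 CPM in control cultures, and Mpc1 is near 0 in cartilage in this table.

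After 3 days of BMP2 the lactate and kinase genes split. Slc16a3 and Pdk4 were higher in cKO than in control cultures, by 4.53-fold and 6.13-fold, and 6 of the 10 genes (Ldhb, Slc16a1, Pdk2, Pdk3, Mpc1 and Mpc2) were lower. Ldha and Pdk1 did not pass the test and overlapped between genotypes. Over all 13924 genes tested, 48.1% were called (25.5% higher, 22.6% lower) and 47.9% did not overlap (24.4% higher, 23.5% lower). The median log2 fold change of the 10 genes was -0.40, against 0.01 over all genes.

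Ldha had 541, 495, 417 and 623 CPM in control and 771, 738, 791 and 444 CPM in cKO cultures at day 3. In 3 of the 4 cKO libraries it exceeded every control library, while replicate 4 fell among the controls (log2 fold change 0.42, 95% interval -0.02 to 0.85, adjusted p = 0.106). Without that library the value was 0.56 (adjusted p = 0.00366), and a fit of all 14 cultures gave 0.40 (adjusted p = 0.0492). Ldhb had 96.3, 91.1, 102 and 99.4 CPM in controls and 65.9, 53.0, 52.6 and 28.2 CPM in cKO cultures, without overlap (log2 fold change -0.95, SE 0.211, adjusted p = 0.00608).

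The log2 ratio of Ldha to Ldhb at day 3 was 2.40 ± 0.264 in control and 3.81 ± 0.188 in cKO libraries (n = 4 each). It did not overlap, and replicate 4 of the cKO group lay with the other 3, since the groups spanned 2.03 to 2.65 and 3.55 to 3.98. The difference was 1.41 (two-sided exact permutation p = 0.0286, the smallest that 4 against 4 allows, and 0.157 after adjustment over the 11 ratio tests made).

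Slc16a3 had 10.6, 16.4, 15.2 and 23.1 CPM in control and 94.3, 72.0, 89.0 and 38.1 CPM in cKO cultures at day 3. Its lowest cKO library, replicate 4, was still above the highest control library (log2 fold change 2.18, SE 0.314, adjusted p = 7.0e-04). Slc16a1 went the other way, with 71.7, 56.5, 56.7 and 67.7 against 47.6, 51.3, 51.6 and 29.0 CPM. That difference was modest (log2 fold change -0.48, SE 0.173, adjusted p = 0.0483) and was lost when any of 6 of the 8 libraries was left out (all but replicates 3 and 4 of the cKO group; adjusted p 0.0563 to 0.111 where lost). The log2 ratio of Slc16a3 to Slc16a1 counts was -2.0 ± 0.525 in controls and 0.66 ± 0.272 in cKO libraries (difference 2.66, exact permutation p = 0.0286, adjusted 0.157).

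**Figure D2:**
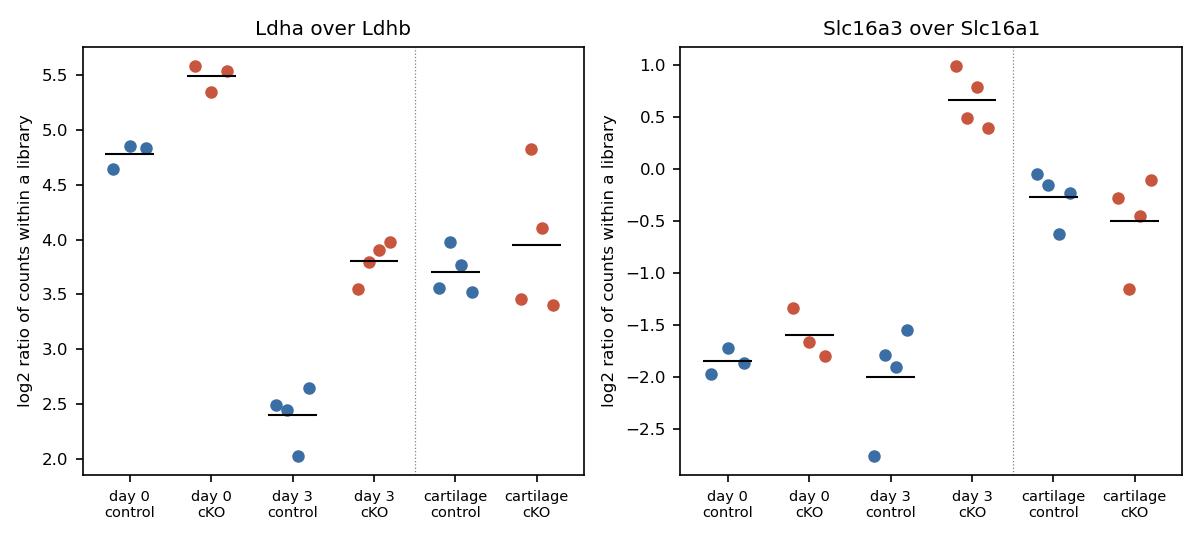
The log2 ratio of counts within a library (y axis) for Ldha over Ldhb and for Slc16a3 over Slc16a1, by group (x axis; points are libraries, lines group means, control blue and cKO red). At day 3 all 4 cKO libraries lie above all 4 control libraries in both ratios, and in cartilage the genotypes overlap.

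Among the kinases at day 3, Pdk4 had 3.15, 3.09, 4.38 and 1.65 CPM in control and 15.5, 14.5, 13.7 and 30.8 CPM in cKO cultures. Replicate 4 carried the highest value, and the other 3 cKO libraries were close together and far above the controls (log2 fold change 2.62, SE 0.367, adjusted p = 6.3e-04). Without replicate 4 it was 2.24 (adjusted p = 5.0e-05). Pdk3 was steady at 46.9, 46.2, 46.4 and 45.5 CPM in controls and had 28.1, 28.2, 30.1 and 16.7 CPM in cKO cultures (log2 fold change -0.83, SE 0.157, adjusted p = 0.00282).

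Pdk2 had 17.8, 21.9, 27.1 and 18.1 CPM in control and 13.8, 14.4, 12.3 and 17.6 CPM in cKO libraries at day 3. The groups nearly met (log2 fold change -0.53, adjusted p = 0.0311), and leaving out control replicate 2 or 3, or cKO replicate 1, 2 or 3, ended the call (adjusted p 0.0691 to 0.0780). Pdk1 had 56.7, 65.5, 57.0 and 69.3 CPM against 62.1, 52.6, 63.1 and 23.1 CPM. Among the cKO libraries, replicate 4 lay far below the controls and replicate 2 just below them, and the log2 fold change was -0.29 with it (adjusted p = 0.393) and -0.07 without it (adjusted p = 0.594).

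The carrier genes of the mitochondrion kept lower levels in cKO cultures at day 3. Mpc1 had 37.5, 33.1, 29.4 and 39.7 against 27.1, 28.0, 28.9 and 25.7 CPM, with a narrow gap between groups (log2 fold change -0.33, adjusted p = 0.0222). The call ended without control replicate 1 or 4 (adjusted p = 0.0540 and 0.0553). Mpc2 had 29.9, 30.4, 26.7 and 34.0 against 21.3, 24.0, 23.4 and 18.0 CPM (log2 fold change -0.46, SE 0.106, adjusted p = 0.00718). The ratio of Mpc1 to Mpc2 overlapped between genotypes at day 3 (difference 0.14 on the log2 scale, exact permutation p = 0.143, n = 4 each). At day 0 it had not overlapped (difference 0.19, exact permutation p = 0.1, n = 3 each).

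**Figure D3:**
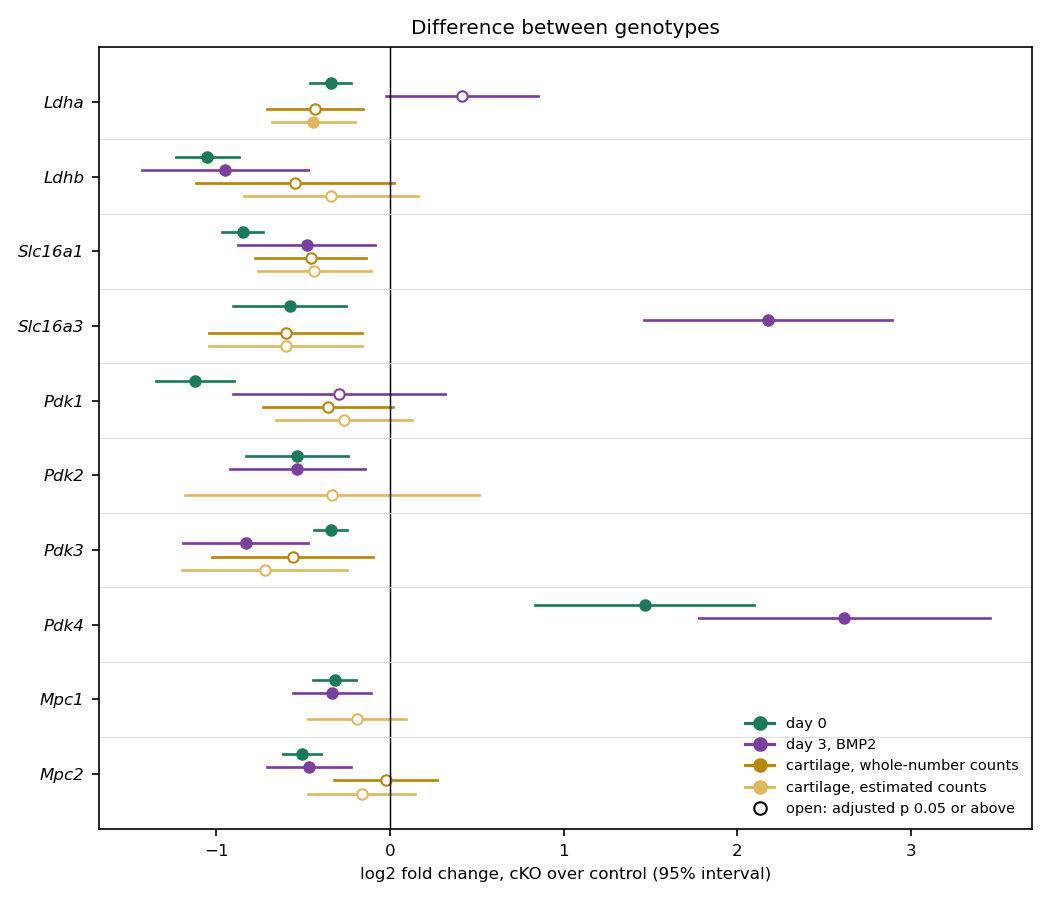
Log2 fold change of cKO over control (x axis, bars are 95% intervals) for each gene (y axis) at day 0, at day 3 and in cartilage by both count tables, filled where the adjusted p is under 0.05. Slc16a3 lies below 0 at day 0 and in cartilage and at 2.18 at day 3, and Pdk4 lies above 0 at both culture days.

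The change from day 0 to day 3 combines time, BMP2 and separate count tables, which cannot be told apart, and each of its contrasts shares libraries with the genotype comparisons. In control cultures 3 genes were higher at day 3 (Ldhb, Pdk2 and Pdk4) and 3 lower (Ldha, Slc16a1 and Slc16a3), where 56.9% of 14909 genes were called (28.1% higher, 28.8% lower) and 64.0% did not overlap (33.2% lower, 30.8% higher). In cKO cultures 4 were higher (Ldhb, Slc16a3, Pdk2 and Pdk4) and 3 lower (Slc16a1, Pdk3 and Mpc1), where 62.2% were called (32.4% higher, 29.8% lower) and 62.5% did not overlap (31.5% higher, 31.0% lower). Of the 10, 7 did not overlap between days in control cultures (3 higher, 4 lower) and 6 in cKO cultures (3 higher, 3 lower). The median of the 10 log2 changes was -0.19 in control and 0.25 in cKO cultures, against 0.00 and 0.02 over all genes.

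Ldhb rose in both genotypes by a like amount, with log2 changes of 1.77 (SE 0.206) in control and 1.86 (SE 0.209) in cKO cultures. Pdk2 did as well, at 2.15 (SE 0.172) and 2.13 (SE 0.175), the largest rise of the 10 in controls. For both genes the difference between the genotypes was near 0, with intervals of -0.52 to 0.69 for Ldhb and -0.54 to 0.49 for Pdk2. Slc16a1 fell in both, by 1.65 (SE 0.160) in control and by 1.29 (SE 0.160) in cKO cultures. Pdk4 rose in both, by 1.63 (SE 0.394, adjusted p = 0.00328) in control and by 2.76 (SE 0.369, adjusted p = 3.4e-05) in cKO cultures.

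Slc16a3, the MCT4 gene, moved in opposite directions in the genotypes. It fell by 1.75 on the log2 scale in controls (SE 0.291, adjusted p = 2.2e-04) and rose by 0.99 in cKO cultures (SE 0.290, adjusted p = 0.00962). In cKO cultures the days overlapped, since replicate 4 of day 3 (38.1 CPM) lay within the day 0 range of 29.4 to 46.2 CPM. Leaving out 1 library at a time gave a rise of 0.81 to 1.20 (adjusted p up to 0.0489). The difference between the changes in the genotypes, the interaction of genotype and day, was 2.74 (SE 0.413, 95% interval 1.84 to 3.63, adjusted p = 0.00103), which amounts to 6.68-fold. It was 2.95 without replicate 4 of the cKO group (adjusted p = 1.0e-05). With all 14 libraries Slc16a3 was the only one of the 10 called by edgeR in the interaction, where 16.8% of genes were called (9.94% positive, 6.89% negative).

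Ldha fell by 0.59 in controls (SE 0.175, adjusted p = 0.0108), while its change in cKO cultures was 0.15 (adjusted p = 0.490) and, without replicate 4 of day 3, 0.31 (adjusted p = 0.0233). The interaction was 0.74 (SE 0.249, adjusted p = 0.0594), and 0.90 without replicate 4 of the cKO group (adjusted p = 6.6e-04). Leaving out control replicate 4 of day 3 also brought the adjusted p to 0.0428, and DESeq2 gave 0.0185. Pdk3 had a log2 change of -0.00 in controls (95% interval -0.31 to 0.30) and fell by 0.51 in cKO cultures (adjusted p = 0.00663), but the interaction of -0.51 was not called (adjusted p = 0.104). Without replicate 4 it was -0.35 (adjusted p = 0.00171), it was called without replicate 3 of the cKO group (-0.60, adjusted p = 0.050), and DESeq2 gave an adjusted p of 0.0481.

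Pdk1 showed log2 changes of -0.46 in control (adjusted p = 0.134) and 0.35 in cKO cultures (adjusted p = 0.240), with an interaction of 0.81 (SE 0.354, adjusted p = 0.140). Without replicate 4 of the cKO group both changes were called, at -0.46 (adjusted p = 0.00142) and 0.59 (adjusted p = 3.5e-04), and so was the interaction of 1.05 (adjusted p = 2.4e-04). Pdk1 in that library was 23.1 CPM, against 52.6 to 63.1 CPM in the other 3. Without it the interaction of Slc16a1 was called too (0.51, adjusted p = 0.00543), so that 5 of the 10 genes were called in place of 1. Calls over all genes rose as well, from 2509 to 4051. The interaction of Pdk4 was 1.13 (SE 0.518, adjusted p = 0.159). The log2 changes of Mpc1 and Mpc2 over the 3 days lay between -0.15 and -0.24 in both genotypes, and those of Mpc1 lay near the threshold in both. In cKO cultures Mpc1 was called (adjusted p = 0.0318), but not without cKO replicate 4 of day 3 or cKO replicate 2 or 3 of day 0 (0.0568 to 0.0865). In controls it was not called (-0.21, adjusted p = 0.0619), but it was with DESeq2 (0.0485) and in edgeR without control replicate 1 or 4 or any cKO replicate of day 3 (0.0169 to 0.0467). Mpc2 in controls was called without cKO replicate 4 of day 3 (adjusted p = 0.0496).

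**Figure D4:**
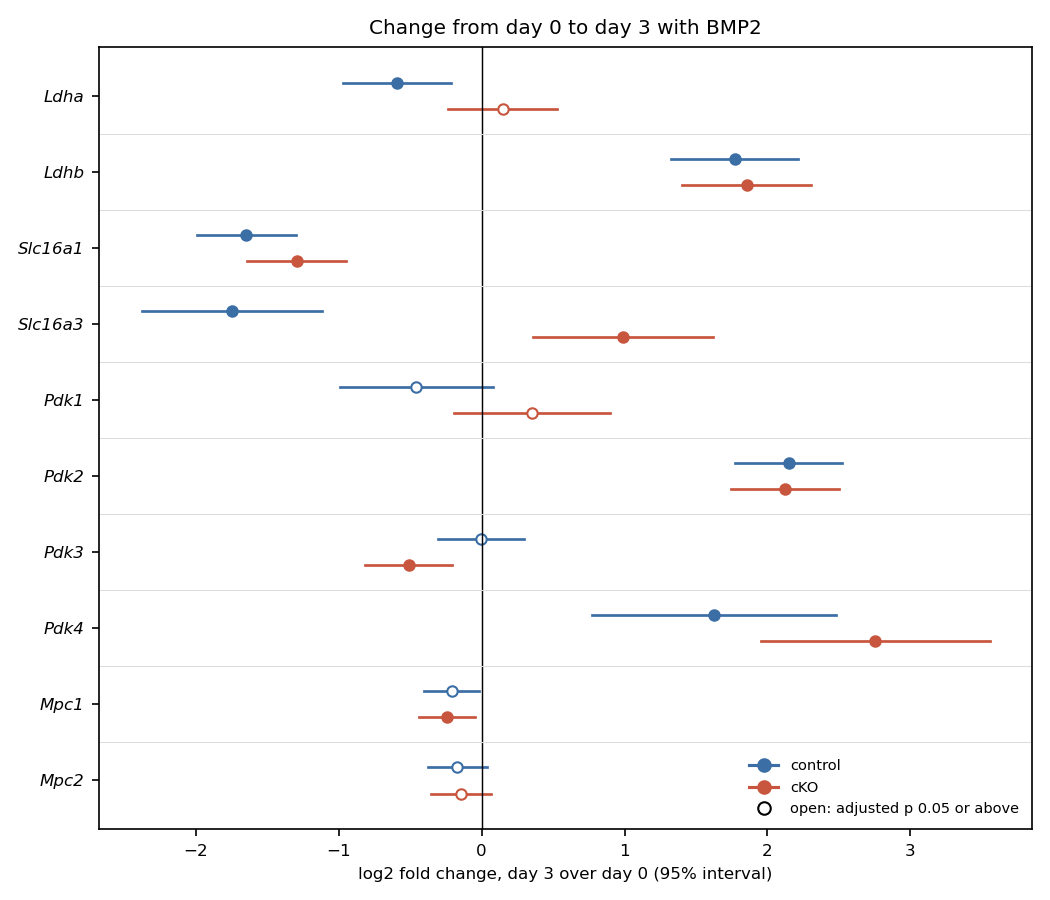
Log2 fold change of day 3 over day 0 (x axis, bars are 95% intervals) for each gene (y axis) in control (blue) and cKO (red) cultures, filled where the adjusted p is under 0.05. Slc16a3 lies at -1.75 in control and 0.99 in cKO cultures, on opposite sides of 0, while the intervals of Ldhb and of Pdk2 nearly coincide.

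Levels of different genes were compared per kilobase of annotated exons. In control cultures at day 0 the order was Ldha (237 ± 1.43 CPM per kb), Slc16a1 (44.7 ± 1.87), Mpc1 (19.4 ± 1.06), Ldhb (18.2 ± 1.38), Pdk3 (18.1 ± 0.321), Pdk1 (10.97 ± 0.204), Slc16a3 (10.3 ± 0.992), Mpc2 (4.63 ± 0.0107), Pdk2 (1.51 ± 0.140) and Pdk4 (0.284 ± 0.0661; SD, n = 3). Mpc1, Ldhb and Pdk3 did not differ beyond their spread, nor did Pdk1 and Slc16a3. In control cultures at day 3 Ldha (157 ± 26.1) and Ldhb (61.9 ± 3.01) led, and Slc16a3 (3.07 ± 0.967) and Pdk4 (0.874 ± 0.319; n = 4) closed the order. In cKO cultures Ldha led too, at 187 ± 13.3 (n = 3) on day 0 and 207 ± 49.3 (n = 4) on day 3, where Slc16a3 had risen to place 3 at 13.8 ± 4.77 and did not differ beyond its spread from Mpc1 (13.2 ± 0.650). The order depends on the length used. The annotated exons of Mpc2 cover 7344 bases and its principal transcript 1025, and by the latter it moved from place 8 to place 4 in control cultures at day 0, while Slc16a3 in cKO cultures at day 3 stood at place 5 (16.9 CPM per kb), behind Mpc1 (28.6) and Mpc2 (21.2).

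Within the lactate dehydrogenase pair Ldhb made up 7.13 ± 0.538% of the level per kilobase in control cultures at day 0 and 28.6 ± 3.82% at day 3, against 4.49 ± 0.387% and 13.1 ± 1.52% in cKO cultures. Slc16a3 made up 18.8 ± 1.33% and 17.7 ± 4.76% of the carrier pair in controls and 21.7 ± 2.85% and 56.8 ± 4.61% in cKO cultures. The carrier pair therefore changed its leading member in cKO cultures at day 3, in all 4 libraries (52.2 to 62.2%). Among the 4 kinases Pdk3 held the largest share in each of the 4 groups of cultures, on average, from 37.8% in cKO at day 3 to 67.6% in cKO at day 0. Pdk4 rose from 0.920 ± 0.219% to 2.58 ± 0.875% of the kinase level in controls and from 3.72 ± 1.49% to 20.6 ± 10.8% in cKO cultures (SD, n = 3 at day 0 and 4 at day 3), the highest being replicate 4 with 36.8%, where Pdk4 exceeded Pdk3 (27.4%). The 4 kinases summed to 30.9 ± 0.476 CPM per kb in control and 21.2 ± 0.916 in cKO cultures at day 0, and to 33.6 ± 1.42 and 26.4 ± 1.83 at day 3. These shares are descriptions with no test.

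**Figure D5:**
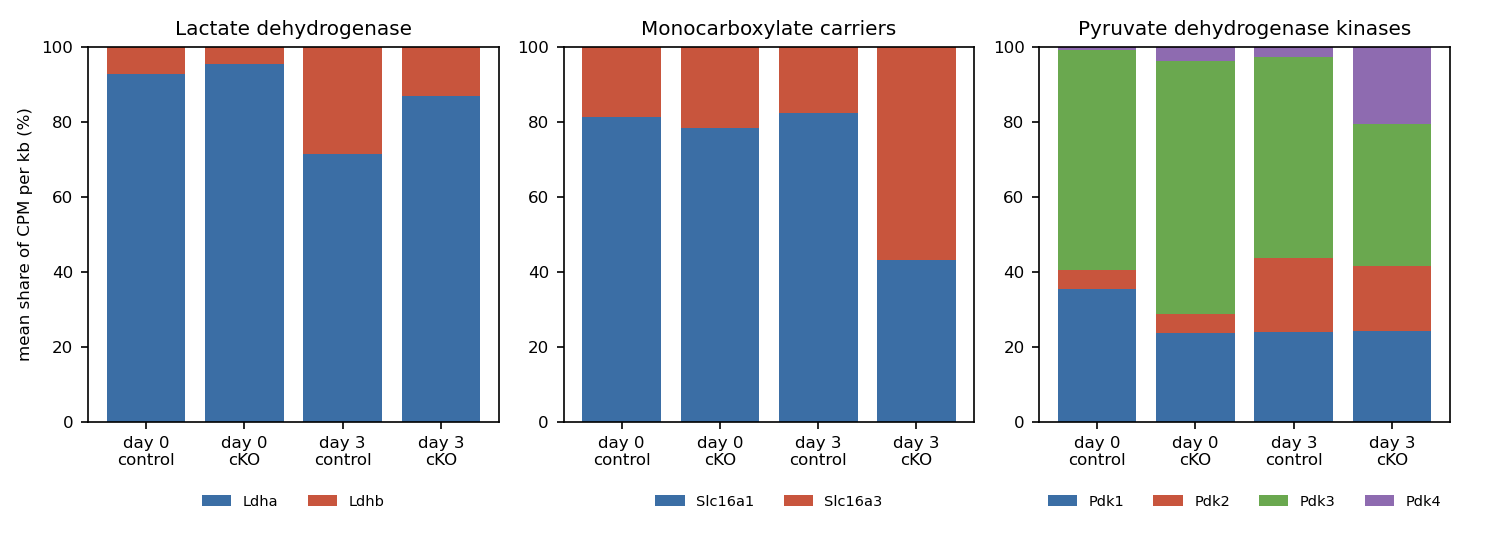
Mean share (y axis, percent of CPM per kilobase of annotated exons) of each member within the lactate dehydrogenase pair, the lactate carrier pair and the 4 kinases, by group of cultures (x axis), with no error drawn. Slc16a3 makes up 56.8% of its pair in cKO cultures at day 3 and 17.7% in controls, and Pdk4 20.6% and 2.58% of the kinases.

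In cartilage none of the 7 genes that could be tested was called, although all 7 had a log2 fold change below 0. The unadjusted p was under 0.05 for 4 of them (Ldha, Slc16a1, Slc16a3 and Pdk3), and DESeq2 called 0 as well. Few genes passed in this tissue: 6.19% of 8793 were called (3.15% higher, 3.04% lower) and 13.5% did not overlap (7.12% higher, 6.40% lower). The median log2 fold change of the 7 was -0.45, against 0.01 over all genes tested. All 4 control libraries lay in library pool 1 and all 4 cKO libraries in pool 2, so pool and genotype cannot be told apart here.

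Ldha had 371, 444, 449 and 461 CPM in control and 352, 298, 292 and 338 CPM in cKO cartilage. The groups did not overlap (log2 fold change -0.43, SE 0.130, adjusted p = 0.0642). In the estimated counts of the same libraries, the authors' other table, it had 716, 733, 803 and 827 against 602, 502, 532 and 630 CPM and passed the test (-0.44, SE 0.111, adjusted p = 0.0325). That call was lost without any one of 6 libraries, the 4 controls and cKO replicates 2 and 3 (adjusted p 0.0635 to 0.0885). Ldhb overlapped, with 31.5, 28.2, 33.0 and 40.2 against 31.9, 10.5, 16.9 and 31.9 CPM (log2 fold change -0.54, adjusted p = 0.250).

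Slc16a3 was even across control cartilage, at 102, 103, 103 and 98.8 CPM, and scattered in cKO cartilage, at 83.1, 35.9, 58.0 and 91.3 CPM. All cKO values were below the controls (log2 fold change -0.60, SE 0.207, adjusted p = 0.103). Slc16a1 had 106, 115, 159 and 116 against 101, 79.6, 79.4 and 98.2 CPM, also without overlap (log2 fold change -0.45, SE 0.150, adjusted p = 0.0890). The ratio of the carriers did not separate the genotypes here (log2 difference -0.23, exact permutation p = 0.514, n = 4 each), nor did that of Ldha to Ldhb (0.24, exact permutation p = 0.6). With estimated counts the difference was -0.23 for the carriers (exact permutation p = 0.314) and -0.04 for Ldha to Ldhb (exact permutation p = 0.857). The sign of the latter thus depended on the count table. Without the filter on low counts Ldha and Slc16a3 were called (adjusted p = 0.0453 and 0.00545).

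Pdk1 had 72.0, 66.6, 69.7 and 69.0 CPM in control and 43.7, 52.5, 42.8 and 78.4 CPM in cKO cartilage. Here cKO replicate 4 lay above all controls and the other 3 below them (log2 fold change -0.35, adjusted p = 0.258, and -0.61 with an adjusted p of 0.0453 without that library). Pdk3 had 25.5, 23.0, 34.9 and 28.8 against 17.6, 18.4, 13.4 and 25.8 CPM (log2 fold change -0.56, adjusted p = 0.149). Pdk2 with 2 to 14 counts and Pdk4 with 1 to 4 counts per library were too low to test. Summed over libraries, Pdk4 had 10 counts in control and 14 in cKO cartilage, a ratio of 1.67 per scaled total (exact 95% interval 0.692 to 4.21, for counting error only). The estimated counts gave 19 and 27, a ratio of 1.72 (0.924 to 3.28). These intervals leave out the spread between samples. They therefore cannot tell whether cartilage differed from the cultures (6.13-fold at day 3 and 2.76-fold at day 0).

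Mpc2 overlapped between the genotypes in cartilage, at 70.6, 83.6, 67.0 and 79.3 against 71.4, 89.2, 66.0 and 70.6 CPM (log2 fold change -0.02, 95% interval -0.32 to 0.27). Mpc1 had 0 or 1 count per library in the whole-number table but 87 to 217 counts in the estimated counts of the same libraries, where its log2 fold change was -0.19 (adjusted p = 0.426). On GRCm38 in GENCODE M21, Mpc1 (chr17:8282904-8297661, plus strand) overlaps 4930506C21Rik (chr17:8293366-8311080, minus strand), which shares 259 of the 524 bases of its last exon and has 0 to 6 counts per library in the whole-number table. The cause of the gap between the tables was not tested, and the Mpc1 value of the whole-number table is not read as a level.

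In estimated counts 1 of 9 tested genes, Ldha, was called (lower), where 6.74% of 10872 genes were (3.56% higher, 3.18% lower). There 4 genes did not overlap, all lower in cKO cartilage, where 14.6% of all genes did not (7.27% higher, 7.30% lower). In the whole-number counts the genotype effect did not differ detectably between female and male cartilage: 0 of 7 genes were called in the interaction by edgeR or by DESeq2, and 0 had an unadjusted p under 0.05, with 0.0103% of 9687 genes called. Marker levels, again in the whole-number counts, moved with genotype in the tissue too. The chondrocyte markers summed to 61803 to 93289 CPM in control and 28088 to 57119 CPM in cKO cartilage (2 of 8 lower), 6 osteoclast markers to 124 to 454 and 58.8 to 119 CPM (3 of 3 tested lower), and the skeletal muscle markers to 11.9 to 16.5 and 58.0 to 89.2 CPM (2 of 2 tested higher, with Myh3 at 0 in controls and Myog at 0 in cKO cartilage). Fibroblast markers summed to 47235 to 87816 and 24944 to 54622 CPM, endothelial markers to 63.0 to 123 and 43.7 to 91.0 CPM, osteoblast markers to 461 to 985 and 64.2 to 1188 CPM, adipocyte markers to 20.2 to 37.1 and 8.40 to 32.1 CPM, and macrophage and leukocyte markers to 31.5 to 55.1 and 24.1 to 41.9 CPM, with none of their tested genes called. The calls depended on the count table. With estimated counts 4 of 8 chondrocyte, 3 of 3 tested osteoclast and 1 of 6 fibroblast markers were lower, and 1 of 2 tested muscle markers was higher. Muscle markers, low in controls, could again pass the filter on low counts through the cKO libraries alone. The part of the markers in the differences of the 7 genes was not tested.

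Other genes of the pathway were read from lists. Over all genes tested, 64.5% were called at day 0 (33.0% higher, 31.6% lower) and 48.1% at day 3 (25.5% higher, 22.6% lower). In cartilage 6.19% were called (3.15% higher, 3.04% lower), and the median log2 fold change was 0.01 in each comparison. The counts of each list below are to be read beside these shares. No such share is given for the counts without replicate 4. Of 8 genes of the pyruvate dehydrogenase complex and its phosphatases, 2 were higher and 2 lower at day 0, 2 higher and 0 lower at day 3, and 0 changed in cartilage (median log2 fold changes -0.02, 0.14 and 0.09). Pdp1, a phosphatase that reverses the action of the PDK enzymes, was higher on both culture days, with log2 fold changes of 0.36 (adjusted p = 0.00507) and 1.36 (adjusted p = 0.0232), as was Dlat, the E2 subunit (0.30 and 0.50, adjusted p = 7.5e-05 and 0.00641). At day 3 Pdp1 had 20.6, 28.6, 29.7 and 20.4 CPM in control and 79.4, 77.4, 78.0 and 18.2 CPM in cKO libraries, so that replicate 4 lay below every control, and without it the log2 fold change was 1.65 (adjusted p = 1.0e-05). Pdha1 and Pdhb, the subunits of E1, were lower at day 0 (-0.19 and -0.24).

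Of 11 other lactate dehydrogenase and carrier genes, 8 could be tested at day 0, of which 4 were higher and 1 lower (median 0.29), and 5 at day 3, of which 1 was higher (median 0.14). Of 2 tested in cartilage 0 were called. The 4 were Hcar1, the lactate receptor (0.77, adjusted p = 0.00775), Slc16a7, which encodes MCT2 (0.59), the sodium-coupled carrier Slc5a8 (0.57), and Slc5a12, whose control libraries all lay at or under the floor of 3 counts. Slc5a12 thus passed the filter on low counts through its cKO libraries alone and could only come out higher. The lower gene, named after its value was seen, was Emb, which encodes embigin, an ancillary protein of the carriers (-0.56, adjusted p = 5.5e-05), and Bsg (basigin, the partner of MCT1 and MCT4) was slightly higher at day 3 (0.22, adjusted p = 0.0489). Without replicate 4 of the cKO group 2 were higher at day 3, Emb being the other (0.77, adjusted p = 1.6e-04, against 0.53 and 0.168 with it).

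Of 16 genes for other fates of pyruvate and for NADH shuttles, 5 were higher and 6 lower at day 0, 4 higher and 6 lower at day 3, and 1 of 12 tested was higher in cartilage (medians 0.03, 0.05 and 0.05). Without replicate 4 of the cKO group 3 were higher and 7 lower at day 3. Gpt2, the mitochondrial alanine aminotransferase that interconverts pyruvate and alanine, was lower in cKO cultures at day 0 (-1.0, adjusted p = 5.4e-07) and day 3 (-1.36, adjusted p = 4.9e-05) and higher in cKO cartilage (1.02, adjusted p = 0.0131). Its levels were 196 ± 3.07 and 98.2 ± 7.92 CPM at day 0 (n = 3 each), 117 ± 15.3 and 45.2 ± 5.37 at day 3, and 13.0 ± 2.0 and 27.2 ± 5.72 in cartilage (n = 4 each). Pck2, the mitochondrial phosphoenolpyruvate carboxykinase, was lower on both days (-0.70 and -0.95), Got1, the cytosolic aspartate aminotransferase, and Slc25a11, the malate carrier, were lower at day 0 (-0.49 and -0.43), and Pcx, the pyruvate carboxylase, at day 3 (-0.76, adjusted p = 0.00110). Gpd1, the cytosolic glycerol-3-phosphate dehydrogenase, was higher at day 3 (2.42, adjusted p = 0.00136).

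Of 12 transcription factors and coactivators known to act on these genes, 5 were higher and 3 lower at day 0, 5 higher and 1 lower at day 3, and 1 of 7 tested was lower in cartilage (medians 0.15, 0.20 and -0.27). Without replicate 4 of the cKO group 5 were higher and 3 lower at day 3. Hif1a, the oxygen-regulated factor, had 582 ± 13.5 CPM in control and 364 ± 35.9 in cKO cultures at day 0 (n = 3 each) and 239 ± 22.0 and 324 ± 67.4 at day 3 (n = 4 each). It was lower at day 0 (-0.68, adjusted p = 1.8e-05) and higher at day 3 (0.45, adjusted p = 0.0361), and its interaction was called (1.12, SE 0.205, adjusted p = 0.00326). At day 3 the cKO libraries had 373, 344, 354 and 224 CPM, of which replicate 4 lay within the control range of 208 to 261 CPM, and without it the log2 fold change was 0.58 (adjusted p = 3.1e-04). Ppargc1a, a coactivator of mitochondrial genes, was lower on both days (-1.68 and -3.49, adjusted p = 0.00210 and 3.7e-05), while Pparg, the adipogenic nuclear receptor, was higher on both (1.18 and 0.61). Esrra was higher at day 0 (0.77), and Myc and Foxo1 at day 3 (0.51 and 0.47). Epas1, the HIF-2α gene, was lower in cartilage (-1.20, adjusted p = 0.00452). At day 3 its log2 fold change was 0.10 (adjusted p = 0.906) with replicate 4 of the cKO group and -1.02 (adjusted p = 0.0153) without it.

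Finally, the genes whose log2 levels followed a member most closely over the 14 cultures were named, as a description over libraries that share genotype, day and depth. For Ldha they were Fam162a (Pearson r 0.966), Tpi1 (0.960) and Rgcc (0.901), among 12277 genes. Slc16a3 was followed by Nampt (0.957), Parp8 (0.953) and Hoxd9 (0.915). Pdk4 was followed by Cmtm4 (0.987), B4galt1 (0.985) and Arnt2 (0.984), and Mpc1 by Mrps14 (0.975), Atp5g1 (0.968) and Elp6 (0.962).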

How the data were processed

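Values deposited by the authors are unscaled: estimated counts for the cultures, in a table per day, and 2 tables for cartilage, of whole-number counts and of estimated counts. Culture libraries came from a strand-specific kit and cartilage libraries from a barcoded 3′ method with unique molecular identifiers, per the labels' protocols. The submitters' processing notes name GRCm38, and for cartilage UMI-tools 1.1.1, Trim Galore 0.6.7, HISAT2 2.2.1, featureCounts 2.0.1 and DESeq2 1.34.0. The culture aligner and whether identifiers were collapsed are not given in the sources used here.

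Estimated counts were rounded to whole numbers and tested, like the whole-number counts, with edgeR 4.0.16 (R 4.3.3, TMM scaling, filterByExpr at 10 counts and 15 in total, quasi-likelihood test, Benjamini-Hochberg adjustment, threshold 0.05), per day for genotype, with sex as covariate in cartilage, and on all 14 cultures for day changes and the interaction. Culture CPM were scaled over all 14 libraries. Ratios were tested by exact permutation. Likeness used log2(CPM + 0.5) over genes whose log2 CPM averaged 1 or more. Named genes were all 10 members, up to 4 called genes of largest change per list and comparison, and the 3 most alike genes of 4 members. The scripts were tested on simulated data. Alternatives were DESeq2 1.42.0, RLE scaling, no filter, a replicate block, no sex covariate, a shared fit and leaving out each replicate. Each replicate counted as 1 sample, as labelled. Replicates of a group differed by more than sampling noise (chi-square over its degrees of freedom 4.02 to 149.5). That excess cannot tell whether they came from different animals. Members and lists were chosen with earlier results of these data known. One marker list, of red blood cells, is not reported here.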

Additional observations from a re-analysis of the deposited data

Results flagged for a closer look

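Among 37 groups of 4 libraries examined gene by gene, 4 held a library far from the other 3, and chance gives about 5% of such groups. In cKO cultures at day 3 it was replicate 4 each time: Ldha at 443.6 CPM against 738 to 791, Pdk3 at 16.7 CPM against 28.1 to 30.1, and Pdk4 at 30.8 CPM against 13.7 to 15.5. The same library had the lowest summed chondrocyte, muscle and osteoblast markers and the highest summed osteoclast, adipocyte, and macrophage and leukocyte markers of its group, whose part was not tested. In cKO cartilage it was replicate 3 with Pdk4 at 1.78 CPM, which is 2 counts against 4 in each of the others. The genotype effect of Slc16a3 differed between day 3 and day 0, by 2.74 on the log2 scale (edgeR interaction, adjusted p = 0.00103).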

How the results depend on the processing

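No difference called with all libraries reversed. Without replicate 4 of the cKO group at day 3, an alternative added for the pathway genes after seeing the data, Epas1 went from 0.10 to -1.02 and Me1 from 0.04 to -0.23 at day 3, and the interaction of Me1 to -0.25 (adjusted p = 0.0153, 0.0133 and 0.0231 in edgeR), all uncalled with it. At day 0, 6260 genes were called in a fit of all 14 cultures, against 10023. In cartilage 544 genes became 357 with DESeq2 and 1044 without the filter, and 0 of the 10 members became 2 without the filter and 1 with estimated counts. With estimated counts 733 genes became 1393 and 1 member became 3 without the filter. For the interaction of genotype and day DESeq2 called 3 members against 1, and for that of genotype and sex 33 genes were called without the filter against 1. Leaving out one library at a time gave 362 to 630 genes and 0 to 1 members in cartilage, 465 to 781 genes and 0 to 2 members with estimated counts, 1591 to 4051 genes and 1 to 5 members for the interaction with day, and 1 to 6 genes for that with sex. The lowest counts came without cKO replicate 4 (cartilage), without cKO replicate 1 or control replicate 2 (estimated counts, 465 and 476) and without control replicate 2 or 3 or cKO replicate 3 of day 0 (interaction, 1591, 1668 and 1604), and 4051 came without cKO replicate 4 of day 3, while the interaction with sex gave 6 genes without cKO replicate 1 and 2 without control replicate 1. The cause of these shifts was not tested beyond the smaller number of samples or the other number of genes tested. Deviations of same-numbered control and cKO libraries correlated at -0.16 to -0.08 at day 3, -0.02 to 0.31 at day 0 and -0.04 to 0.15 in cartilage. At 3 or 4 libraries per group these values cannot tell whether the numbers pair the samples. With a replicate block 5 members were called at day 3 in place of 8, losing Slc16a1, Pdk2 and Mpc1 (adjusted p = 0.0864, 0.0853 and 0.0738 in edgeR), and no other member call changed. The length of the principal transcript, an alternative chosen after seeing the data, moved 20 of 32 shares within families by more than 1 SD. Depth limits cartilage, where Pdk2, Pdk4 and Mpc1 could not be tested in the whole-number counts. Floors and intervals cover counting error and the spread between samples only.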
